A study of Mus musculus with 10 samples.

Results

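The 10 genes described here, *Postn*, *Tnc*, *Fn1*, *Vcan*, *Dcn*, *Lum*, *Bgn*, *Fbln1*, *Eln* and *Fbn2*, encode matrix proteins other than collagens. They were chosen by gene symbol with earlier results of these data known, and each was found once among the 32285 genes of every matrix. The cells came from wild type NMRI mouse embryos (whole mandibles at E11.5 and buds of the lower incisor at the later stages E14.5 and E16.5) and were released with Collagenase P before 10x Genomics 3' libraries were made. By the labels there were 4, 4 and 2 samples of these stages in order of age, but 1 matrix of counts covers each stage and its barcodes cannot be traced to samples. Each stage was therefore 1 sample, no test between stages could be made, and stage, dissected tissue and sample cannot be told apart. Ranges in parentheses are 95% intervals and account for counting error alone. Levels listed with no stage named follow the order of age, with E14.5 before E16.5 for epithelium.

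Matrix proteins of this kind surround mesenchymal cells and set how fibres assemble and which signals reach the cells. Periostin (*Postn*) and tenascin C (*Tnc*) are matricellular proteins that bind integrins and fibrillar matrix, and periostin is known from the periodontal ligament and periosteum. Fibronectin (*Fn1*) forms the early fibrils on which other matrix is laid. Versican (*Vcan*) is a large proteoglycan that binds hyaluronan, whereas decorin (*Dcn*), lumican (*Lum*) and biglycan (*Bgn*) are small leucine-rich proteoglycans that bind collagen fibrils. Fibulin 1 (*Fbln1*), elastin (*Eln*) and fibrillin 2 (*Fbn2*) belong to elastic fibres and microfibrils.

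RefSeq promoter windows of build GRCm38.p6 are described for 5 of the 10 genes, *Postn*, *Tnc*, *Vcan*, *Fbln1* and *Bgn*. They are shown because they differ in a TATA-like run next to the start. The other genes, *Fbn2* among them, were not searched, so the contrast covers these 5 genes alone. The letters TATATAA, on the strand of the gene, are in capitals. They began 28 bases before 1 of 2 *Postn* starts and 29 bases before 1 of 2 *Tnc* starts. They were not in the 250 bases before the other start of either gene, nor in those of *Vcan*, *Fbln1* or *Bgn*. Of 32851 promoter windows, 2.05% held TATATAA on the gene's strand and 3.04% on either strand in the 250 bases before the start, and 0.755% held it on either strand in the last 40 bases. The shorter TATAAA overlaps the end of the *Postn* match and was also at 1 *Tnc* site. That site began 126 bases before 1 *Tnc* start and 205 bases before the other, which is the start shown. TATAAA was in 12.4% of windows on either strand. Each sequence runs 5′ to 3′ on the gene's strand and ends at the base before the start. The *Tnc* start shown lies 79 bases inside the gene as GENCODE has it, so only 30 bases are given. These matches are letters in a window and were not tested for function.
Postn, chr3:54361007-54361106, plus strand: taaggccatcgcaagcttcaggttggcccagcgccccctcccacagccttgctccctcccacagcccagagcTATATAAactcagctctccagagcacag
Tnc, chr4:64046937-64046966, minus strand: cTATATAAgcctgccaaagctggctgctcc
Vcan, chr13:89742513-89742612, minus strand: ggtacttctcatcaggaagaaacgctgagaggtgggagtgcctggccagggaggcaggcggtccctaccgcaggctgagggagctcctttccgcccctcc
Fbln1, chr15:85205849-85205948, plus strand: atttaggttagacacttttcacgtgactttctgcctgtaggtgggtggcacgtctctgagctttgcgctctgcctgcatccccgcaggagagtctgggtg
Bgn, chrX:73483501-73483600, plus strand: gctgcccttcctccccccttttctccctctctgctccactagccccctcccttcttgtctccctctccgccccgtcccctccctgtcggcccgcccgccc

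A minimum of 700 genes and a ceiling of 20% mitochondrial UMIs per cell left 6573, 6091 and 4511 cells with a median depth of 5664, 3471 and 6260 UMIs. A cell was given to a lineage when it had UMIs of at least 2 markers of that lineage and of fewer than 2 of any other, with none of the 10 genes among the markers. This gave 5364, 3791 and 2048 mesenchymal cells, and 840 and 1351 epithelial cells from the 2 later stages. Cells that met the rule for more than 1 lineage were left out, and at E16.5 these were 880, of which 680 met it for mesenchyme and epithelium together. At E11.5, 9 cells were called epithelium, too few to describe. Groups of 50 or more cells were also found for endothelium at each stage, immune cells at E14.5 and erythroid cells at E11.5, so that 10 groups were compared. Of the defining genes, *Prrx1* was in 88.7%, 84.0% and 75.7% of the mesenchymal cells and *Krt14* was in 78.3% and 85.3% of the epithelial cells. The 11 epithelial markers summed to 4.08, 46.0 and 59.0 CPM in mesenchyme, against 2478 and 3063 CPM in epithelium. From 13 to 17 barcodes recurred between any pair of stages. No UMI of 4 Y-linked genes was counted in the E11.5 cells, against 1197 and 1955 at the later stages. The sex of the embryos may thus also differ between stages, and it cannot be told apart from stage.

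The summed level of the 10 genes grew with stage in the mesenchyme. Together the 10 genes made up 0.0838%, 0.183% and 0.211% of mesenchymal UMIs. The makeup of that sum also shifted: *Vcan* held 43.0%, 28.5% and 24.5% of it in turn, *Lum* 1.24%, 10.4% and 28.6%, and *Postn* 2.48%, 17.7% and 10.2%. Levels are given as CPM, counts per 1e6 UMIs of the group. From E14.5 to E16.5 the sum went from 1830 to 2110 CPM and *Lum* from 189.6 to 604, so the other genes together fell. A UMI counts 1 molecule tagged near its 3' end, so the values were not divided by gene length, and splice forms of *Fn1*, *Tnc* and *Vcan* were not resolved.

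**Figure D1:**
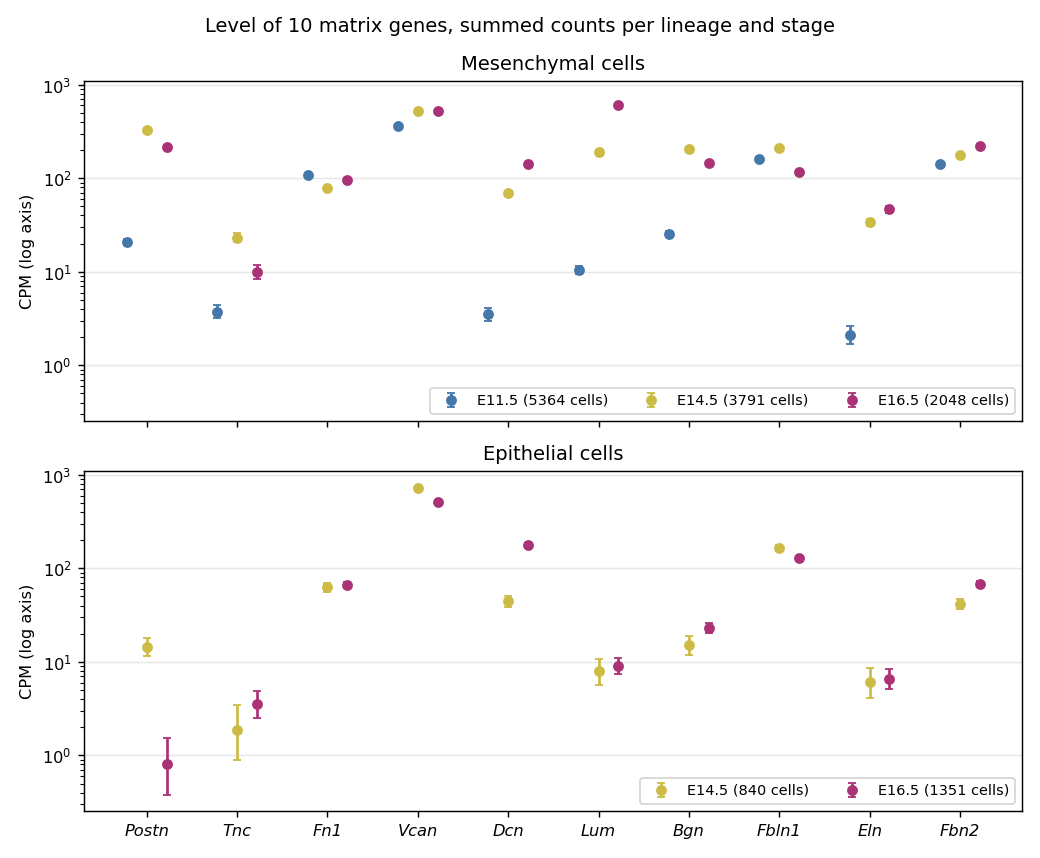
Level (CPM, log axis) of the 10 genes in mesenchymal cells (upper panel) and epithelial cells (lower panel) by stage. Points are summed counts of 1 sample per stage and bars the 95% Poisson intervals. In mesenchyme all but *Fn1* and *Fbln1* lie lowest at E11.5, and *Postn*, *Tnc*, *Lum* and *Eln* are under 15 CPM in epithelium.

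Between E11.5 and E14.5, 6 of the 10 genes rose past 2 fold in mesenchyme, where 2.81% of the 12583 genes with at least 50 counts did so. They were *Postn*, *Tnc*, *Dcn*, *Lum*, *Bgn* and *Eln*. None of the 10 fell past 2 fold, as 1.92% of all genes did. The median log2 ratio of the 10 genes was 1.56, against -0.10 for all genes, with 10 CPM added to both sides. Between E14.5 and E16.5, *Lum* alone rose past 2 fold, against 1.32% of 11837 genes, and none fell that far, against 0.431%. The median was then 0.12 for the 10 genes and 0.09 for all genes. Past 2 fold is a rule of size, since there was 1 sample a stage. With 10 CPM added, a gene had to reach at least 10 CPM on the higher side to pass. Genes with 50 counts could lie below that, so the shares of all genes, here and below, include genes too low to pass.

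**Figure D2:**
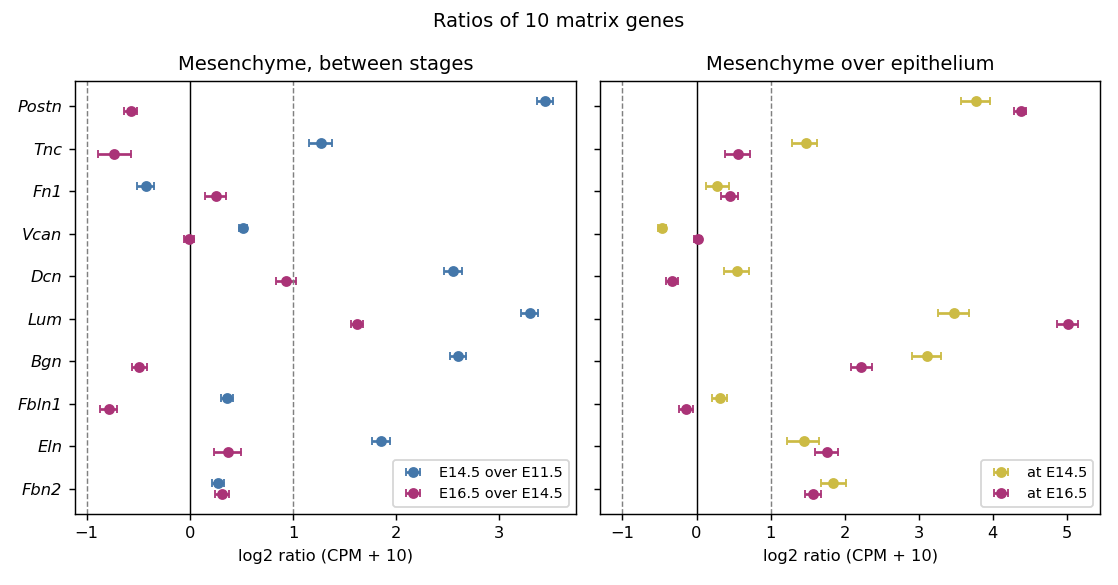
Log2 ratio of each gene (10 CPM added, 95% intervals for counting error) between stages in mesenchyme (left) and of mesenchyme over epithelium (right); dashed lines mark 2 fold. Of the 10 genes, 6 lie right of the line for E14.5 over E11.5 and 1 for E16.5 over E14.5.

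Among the matricellular genes, *Postn* (chr3:54361109-54391037) measured 20.8 CPM (19.4 to 22.2) in E11.5 mesenchyme, 325 (316 to 334) in that of E14.5 and 215 (208 to 223) in that of E16.5. The intervals are apart, with the middle stage highest in summed counts. The log2 ratio was 3.44 (3.37 to 3.52) for the first step and -0.57 (-0.63 to -0.51) for the next. Depth also differed, with a median of 3550 UMIs in E14.5 mesenchyme and 5811 in that of E16.5. In E14.5 cells of 5118 or more UMIs *Postn* was at 159 CPM. At E16.5 it was at 249 CPM in cells of 5812 to 8339 UMIs and 138 in deeper ones. The part of depth in the stage order was not tested. *Postn* UMIs were seen in 49.4% of E14.5 mesenchymal cells, against 2.61% of immune cells, which were deeper (median 3550 and 6364 UMIs). With each cell thinned to 2000 UMIs, the share in mesenchyme went from 3.21% to 38.6% and 28.1% over the stages. *Tnc* (chr4:63959785-64047015) had the same order at much lower counts, with 3.76 CPM (3.19 to 4.40), 23.2 (20.9 to 25.8) and 9.97 (8.41 to 11.7). Its log2 ratios were 1.27 (1.16 to 1.38) and -0.74 (-0.89 to -0.57).

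*Fn1* (chr1:71585520-71653200) did not share that course. Its mesenchymal level was 109 (105 to 112), 78.2 (73.9 to 82.7) and 95.04 (90.1 to 100.2) CPM, all within 2 fold of each other. It was also broad over lineages. The E11.5 endothelium had the highest value, 134 CPM (98.6 to 179), and the E14.5 endothelium measured 99.1 (76.2 to 127). Both intervals overlap that of the E11.5 mesenchyme. At E16.5 endothelium was at 65.6 CPM, below the 95.04 of mesenchyme of that stage. Epithelium held 62.7 and 66.8 CPM, E11.5 erythroid cells 49.2 and E14.5 immune cells 16.4. Globin took up 442447 CPM of the E11.5 erythroid cells. Their levels of other genes, here and below, are thus not on a like scale with those of other lineages.

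*Vcan* (chr13:89655312-89742509) was a gene of both mesenchyme and epithelium. The E14.5 epithelium was highest at 724 CPM (702 to 748). The E14.5 mesenchyme at 521 (510.0 to 533), the E16.5 mesenchyme at 518 (506 to 530.0) and the E16.5 epithelium at 513 (499 to 526) did not differ beyond counting error. The E11.5 mesenchyme followed at 361 (355 to 367). Endothelium held 8.74 to 44.0 CPM, immune cells 11.3 and erythroid cells 9.83. *Vcan* UMIs were seen in 79.6% of E14.5 epithelial cells and in 4.35% of immune cells, at median depths of 4252.5 and 6364 UMIs.

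The small leucine-rich proteoglycans *Dcn* and *Lum* rose at both steps in the summed counts of mesenchyme, whereas *Bgn* peaked at E14.5. *Lum* went from 10.4 CPM (9.40 to 11.4) to 189.6 (183 to 197) and 604 (591 to 617), with log2 ratios of 3.29 (3.21 to 3.38) and 1.62 (1.56 to 1.68). *Dcn* went from 3.51 (2.96 to 4.14) to 69.2 (65.1 to 73.5) and 141 (135 to 147), with log2 ratios of 2.55 (2.46 to 2.63) and 0.93 (0.83 to 1.02). The last of these sits just under the 2-fold line, and with 1 CPM added it sits just over, at 1.01. *Bgn* measured 25.7 (24.1 to 27.3), 206 (199 to 213) and 144 (138 to 150.3) CPM. In cells thinned to 2000 UMIs, *Lum* was seen in 1.79%, 27.5% and 43.9% of the mesenchyme and *Bgn* in 4.90%, 33.1% and 26.1%. Levels of *Dcn* and *Bgn* differed with depth. At E16.5 *Dcn* was at 68.4 CPM in the shallowest 512 mesenchymal cells and 188 in the deepest 512, and *Bgn* at 205 and 115. At E14.5 *Dcn* was at 89.4 CPM in the shallowest 948 and 61.2 in the deepest 948, and *Bgn* at 196 and 218. The part of depth in their change from E14.5 to E16.5 was not tested.

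*Dcn* (chr10:97479609-97518143) and *Lum* (chr10:97565128-97572703) are neighbours on the plus strand, 46984 bases apart, and are followed by *Kera* and *Epyc*, which encode further members of the same proteoglycan family. *Kera* and *Epyc* had 2 to 8 UMIs in the mesenchyme of a stage. The E16.5 rise in summed counts was thus seen in *Dcn* and *Lum* and was not detectable in the next genes of the cluster at this depth. *Bgn* (chrX:73483602-73495933) is X-linked, and the part of sex in its level was not tested.

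*Bgn* was the small proteoglycan that endothelium shared. It held 77.1 (50.8 to 112), 135 (108 to 167) and 93.2 (71.8 to 119) CPM in endothelial cells, against 25.7, 206 and 144 CPM in mesenchyme of the same stages, so endothelium was the higher at E11.5 and the lower at both later stages. *Dcn* had no UMI in endothelium at E11.5 and E14.5, which allows up to 8.57 and 4.72 CPM, and 1 UMI at E16.5. *Lum* had 0, 4 and 0 UMIs there. Endothelial totals were 350120 to 686342 UMIs, so low levels could not be seen.

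Of the elastic fibre genes, *Eln* (chr5:134702593-134747323) passed 2 fold and *Fbn2* and *Fbln1* did not. *Eln* measured 2.11 (1.69 to 2.61), 33.8 (30.9 to 36.8) and 46.4 (43.0 to 50.1) CPM in mesenchyme, a log2 ratio of 1.85 (1.76 to 1.94) and then 0.37 (0.23 to 0.50). *Fbn2* (chr18:58008623-58210487) was at 144 (139.9 to 147), 176 (169 to 182) and 220.4 (213 to 228) CPM. *Fbln1* (chr15:85205949-85286535) was at 159.6 (156 to 163), 208 (201 to 215) and 116 (111 to 122) CPM, and its log2 ratio of -0.79 (-0.86 to -0.71) for E16.5 over E14.5 was the lowest of the 10 genes. *Fbn2* was higher at each later stage, with intervals apart. *Fbn2* and *Fbln1* UMIs were in 54.9% and 60.2% of E11.5 mesenchymal cells, when *Eln* UMIs were in 1.55%.

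**Figure D3:**
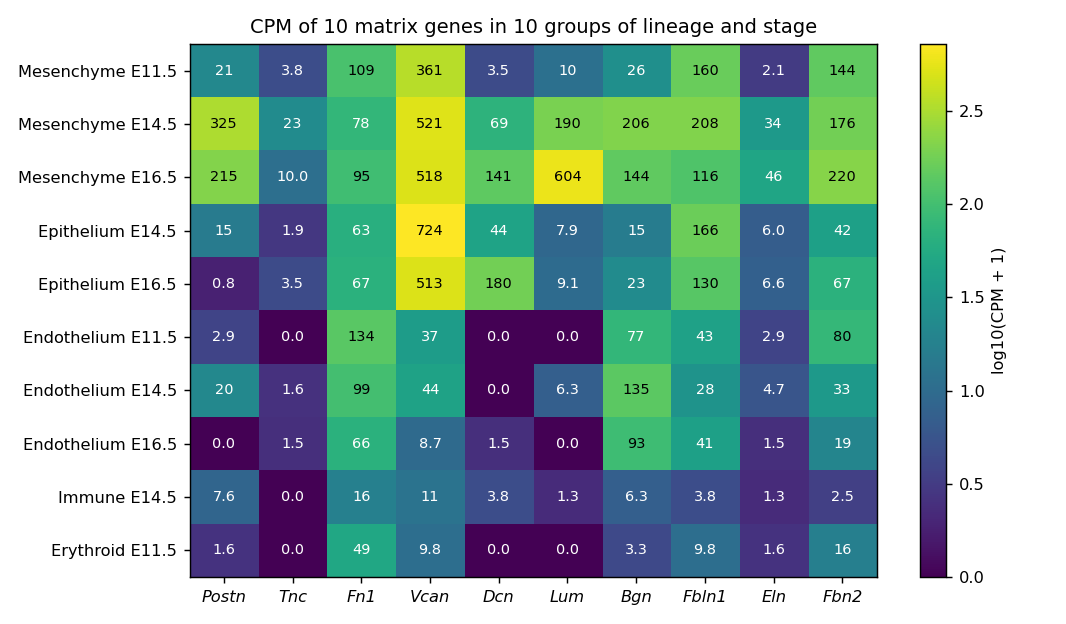
CPM of the 10 genes in the 10 groups of lineage and stage with at least 50 cells; colour is log10(CPM + 1) and the number in each square the CPM. *Vcan* and *Fbln1* are high in mesenchyme and epithelium, and *Dcn* reaches its highest value in E16.5 epithelium. *Fn1*, *Bgn*, *Fbn2*, *Fbln1* and *Vcan* are also seen in endothelium.

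Set against epithelium of the same stage, 6 of the 10 genes were higher by at least 2 fold in mesenchyme at E14.5 and 5 at E16.5. Of all genes tested, 4.15% and 4.87% were. None of the 10 was lower by 2 fold, against 3.74% and 3.49% of all genes. *Postn*, *Lum*, *Bgn*, *Eln* and *Fbn2* passed at both stages and *Tnc* at E14.5, whereas *Fn1*, *Vcan*, *Dcn* and *Fbln1* passed at neither. With 10 CPM added, the largest was *Lum* at E16.5, 604 against 9.07 CPM, a log2 ratio of 5.01 (4.87 to 5.15). *Postn* stood at 215 against 0.816 CPM at E16.5, with 9 UMIs in the 1351 epithelial cells, and its log2 ratio was 4.38 (4.28 to 4.44). With nothing added the ratio was 264 for *Postn* and 66.6 for *Lum*, so this order depends on the CPM added. At E14.5 *Fbln1* was at 166 CPM (155 to 177) in epithelium, and at E16.5 at 129.6 (123 to 137), above the 116 of mesenchyme.

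*Dcn*, like *Fbln1*, was higher in mesenchyme than in epithelium at E14.5 and lower at E16.5. In epithelium it went from 44.4 CPM (39.0 to 50.5) to 179.7 (172 to 188) between E14.5 and E16.5, a log2 ratio of 1.80 (1.64 to 1.97), while *Postn* fell by 1.18 on the log2 scale (-1.29 to -1.01). Those were 1 gene up and 1 down past 2 fold, where 1.1% and 0.336% of all genes were. Mesenchymal transcripts in the called epithelium differed between these stages too. *Prrx1* UMIs were in 3.69% and then 0.370% of the cells, and *Col3a1* went from 73.2 to 6.17 CPM in cells with a *Dcn* UMI and from 37.9 to 7.68 in cells without. The 10 mesenchyme markers summed to 49.3 and 125 CPM, with none and 1 of them at 0, and *Dlx5* UMIs were in 8.81% and 39.7% of the cells. The part of these in the *Postn* and *Dcn* values was not tested. *Dcn* UMIs were in 11.1% and 27.2% of epithelial cells, against 2.61% of E14.5 immune cells and 1.06% of E16.5 endothelial cells (median 5343.5 UMIs). At a depth of 2000 UMIs they were in 7.03% and 17.7% of epithelial cells. The mesenchyme over epithelium log2 ratio was 0.54 (0.37 to 0.71) at the earlier stage and -0.33 (-0.42 to -0.25) at the later one.

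The E16.5 epithelial cells with a *Dcn* UMI carried few mesenchymal UMIs. In those 367 cells, *Postn* had 1 UMI (0.268 CPM), *Prrx1* 1 UMI, *Col1a1* 12.3 CPM and *Lum* 17.7 CPM, where mesenchymal cells of that stage had 215, 317, 1155 and 604 CPM. *Epcam* was at 363 CPM and *Krt14* at 621 CPM in them, against 13.4 and 9.41 CPM in mesenchyme. *Prrx1* is a mesenchyme marker of the lineage call, and *Epcam* and *Krt14* are epithelial ones. Their values thus follow in part from the call, which also left out cells that met the rule for both lineages. These values therefore cannot tell where the *Dcn* UMIs came from. At E14.5 the 93 epithelial cells with a *Dcn* UMI had *Col1a1* at 37.8, *Col3a1* at 73.2, *Postn* at 22.4 and *Lum* at 18.9 CPM, against 19.0, 37.9, 13.0 and 5.83 in those without (median 6329 and 4144 UMIs). At E16.5 *Lum* was at 4.66 CPM in the 984 epithelial cells without a *Dcn* UMI, which were shallower (median 5454.5 against 7737 UMIs).

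Within the epithelium *Dcn* was uneven, as gates chosen after the values were seen show. At E16.5, 381 cells with at least 2 *Wnt4* UMIs held 311 CPM of *Dcn* and 687 cells with none 74.3. The 169 cells with *Pcp4* or *Cldn10* UMIs held 13.1 CPM and those without 223, a log2 ratio of -3.33 (-3.65 to -2.99), and *Fn1* was at 13.6 against 81.2 CPM in the same cells. In the 273 *Shh* cells *Dcn* was at 71.9 against 234 CPM and *Fbn2* at 32.7 against 84.8. At E14.5 the 145 cells with *Nr2f2* or *Igfbpl1* UMIs had 95.1 CPM of *Dcn* against 15.4, and 994 of *Vcan* against 572. The gated cells were deeper in each case, for example 8739 against 5684 UMIs at the median for *Pcp4* or *Cldn10*, and the part of depth in these values was not tested.

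Inside the mesenchyme, cells were split by gene lists that hold none of the 10 genes, as cells with UMIs of at least 2 listed genes against cells with none. Over 13 such comparisons with all UMIs, *Postn* passed 2 fold in 6 and *Tnc* and *Fn1* in 2 each, and the other 7 genes passed in none. Over the same comparisons, 1.04% of values of all genes outside the gate were higher and 0.679% lower by 2 fold. At E14.5, 1289 cells with dental papilla genes (*Fgf3*, *Fgf10*, *Crym*, *Egr3*, *Pax9*, *Lef1*, *Bmp4*, *Wif1*) had 137 CPM of *Postn* and 46.8 of *Fn1*, against 573 and 124 in the 1461 cells without. The log2 ratios were -1.99 (-2.09 to -1.89) and -1.24 (-1.41 to -1.07). Cells with such genes were deeper, with a median of 5341 against 2763 UMIs. With gates and levels taken from cells thinned to 2000 UMIs, the ratios were -1.67 and -1.26. Thinning evens the UMIs counted per cell, but cells were not matched on their depth before it. In E14.5 mesenchyme *Fn1*, like *Postn* (below), fell with that depth, from 123 CPM in the shallowest 948 cells to 53.0 in the deepest 948. The part of that depth in the thinned ratios, here and below, was not tested.

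Osteogenic genes (*Runx2*, *Sp7*, *Alpl* and others) went with more *Postn* and less *Vcan*. At E14.5 *Postn* was at 577 CPM in 611 osteogenic cells and 261 in 1642 cells with none. The log2 ratio was 1.12 (1.02 to 1.22), and 1.13 after thinning. At E16.5 the 666 osteogenic cells had 255 against 124 CPM of *Postn* and 200.4 against 100.5 of *Dcn*, log2 ratios of 0.99 and 0.93. *Vcan* had a log2 ratio of -0.70 at E14.5 and -0.57 at E16.5, and after thinning of -0.74 and -1.20. Cells with cycling genes (*Mki67*, *Top2a* and others) held less *Postn*, 194 against 563 CPM at E14.5 and 101.3 against 343 at E16.5. The log2 ratios after thinning were -1.15 and -1.33.

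The E16.5 papilla gate moved with thinning. *Postn* fell with the depth of the cell in E14.5 mesenchyme, from 570.3 CPM in the shallowest 948 cells to 159 in the deepest 948. From the shallowest to the deepest 512 cells at E16.5, *Postn* fell from 306 to 138 CPM and *Lum* rose from 322 to 758. For the E16.5 papilla gate the *Postn* log2 ratio was -1.34 with all UMIs and -0.39 after thinning, and that of *Dcn* -0.27 and -1.15. *Vcan* with the osteogenic genes and *Dcn* with the papilla genes at E16.5 were thus past 2 fold after thinning only. At E11.5 no gene passed 2 fold in a gate with all UMIs. The nearest was *Postn* at 47.9 against 19.3 CPM with the aboral genes *Cited1* and *Foxd2* (0.98, 0.77 to 1.19). This ratio was 0.60 (-0.60 to 1.749) after thinning. In thinned cells *Lum* was at 29.2 against 7.80 CPM with the papilla genes at E11.5 (1.14, 0.26 to 1.98).

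**Figure D4:**
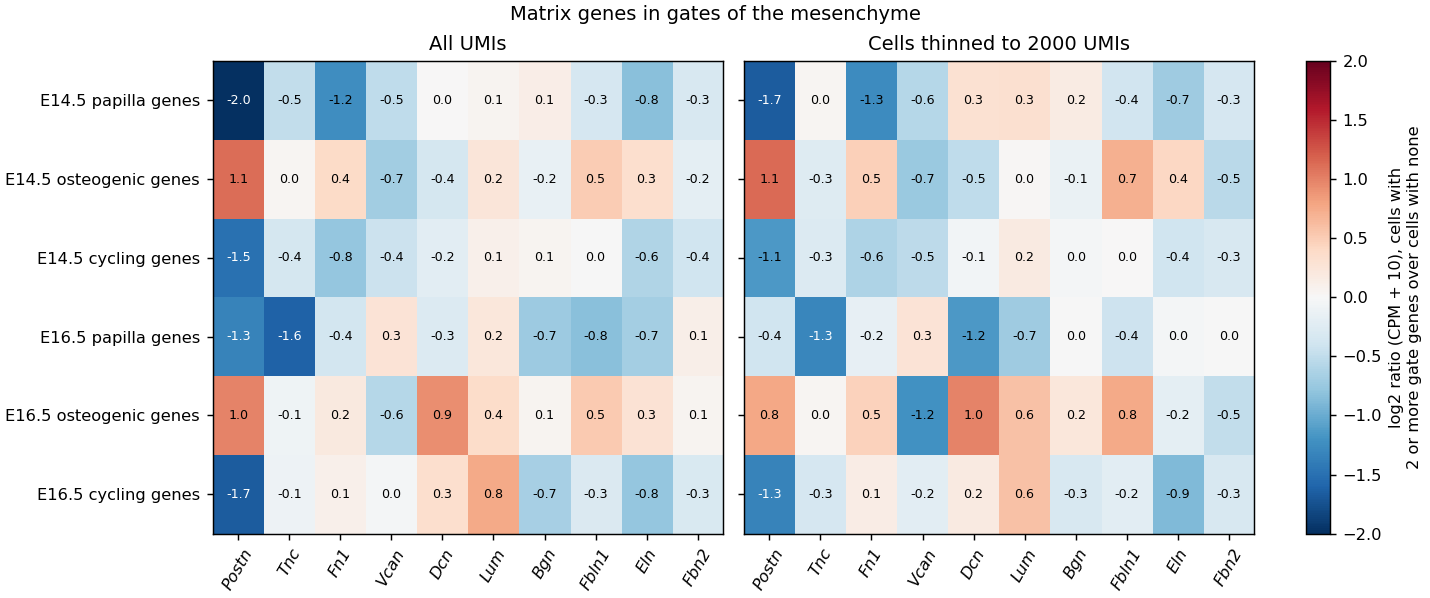
Log2 ratio of each gene between mesenchymal cells with UMIs of 2 or more gate genes and cells with none, for 3 gates at E14.5 and E16.5, with all UMIs (left) and after thinning each cell to 2000 UMIs (right). *Postn* is blue for papilla and cycling genes at E14.5 in both panels, while the E16.5 papilla values for *Postn* and *Dcn* differ between the panels.

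The genes also parted from one another cell by cell. In mesenchymal cells thinned to 2000 UMIs, a median of 1, 2 and 2 of the 10 genes was seen per cell. *Dcn* and *Lum* went together. Of 325 E16.5 cells with a *Dcn* UMI, 68.3% had a *Lum* UMI, against 43.9% of all 2014 cells, and *Lum* was at 1129 CPM in them and 402 in the others, a log2 ratio of 1.47 (1.34 to 1.59). At E14.5 the same ratio was 0.89 (0.69 to 1.08). In the E16.5 cells with a *Postn* UMI, *Lum* was lower, 364 against 580.4 CPM (-0.66, -0.81 to -0.51), *Dcn* was at 80.5 against 133 (-0.66, -0.97 to -0.36), and *Bgn* was higher, 249 against 133 (0.85, 0.64 to 1.07). At E14.5 the *Lum* ratio had the other sign, 222 against 173 CPM (0.34, 0.19 to 0.49). *Eln* cells resembled *Postn* cells at E16.5, with *Lum* at 300.0 against 544 CPM and *Bgn* higher by 0.61 on the log2 scale. Cells were not matched on their depth before thinning. From the shallowest to the deepest 512 mesenchymal cells at E16.5, *Dcn* rose from 68.4 to 188 CPM and *Lum* from 322 to 758. Over the same cells *Postn* fell from 306 to 138 CPM, *Eln* from 73.7 to 36.0 and *Bgn* from 205 to 115. The part of that depth in the ratios here and in the next paragraph was not tested. Cells are not replicates, and each of these splits describes 1 sample.

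Genes outside the set followed the same split at E16.5, named here after their values were seen. Those highest in cells with a *Lum* UMI were *Smpd3*, *Ibsp*, *Plac8* and *Itga4*, with log2 ratios of 2.82, 2.25, 2.22 and 2.16, and *Smpd3* and *Itga4* also led the *Dcn* cells, *Smpd3* at 2.45. In cells with a *Postn* UMI, *Smpd3* and *Plac8* were lowest at -3.86 and -3.30, and *Aspn*, *Pax3*, *Ogn* and *Sfrp4* highest at 1.95, 1.63, 1.60 and 1.57. *Smpd3* encodes a neutral sphingomyelinase needed for mineralized tissue, and *Aspn* and *Ogn* are small leucine-rich proteoglycans. At E14.5 the genes lowest in *Postn* cells were *Crym*, *Dlx2*, *Egr3* and *Fgf3*, at -2.33 to -1.63, of which all but *Dlx2* are on the papilla list.

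**Figure D5:**
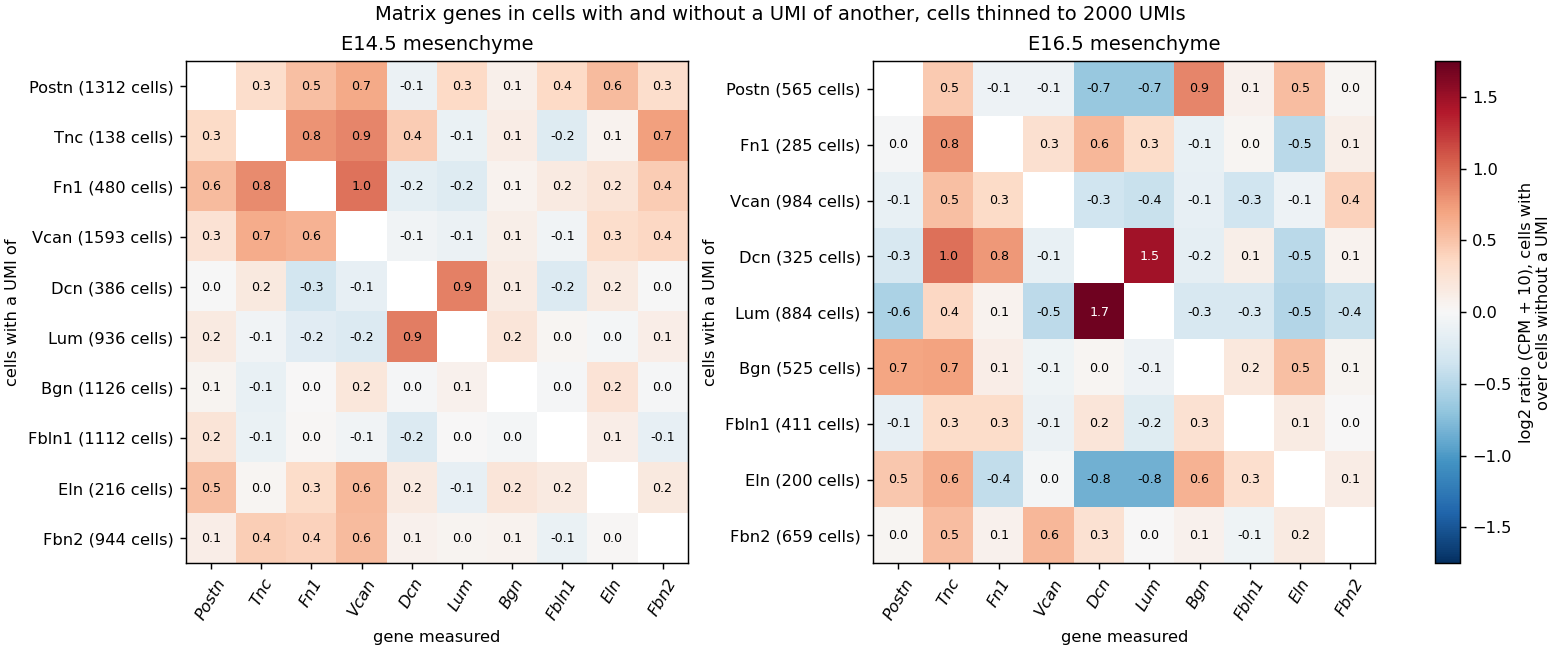
Log2 ratio of each gene (columns) between mesenchymal cells with and without a UMI of another (rows) after thinning to 2000 UMIs, at E14.5 (left) and E16.5 (right); rows need at least 50 cells on each side and blank squares are a gene against itself. *Dcn* in *Lum* cells (1.71) and *Lum* in *Dcn* cells (1.47) are the highest squares at E16.5, and *Postn* and *Eln* cells are low in both.

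Of the related matrix genes, taken from 5 lists, some also rose from E11.5 to E14.5, when 2.81% of all genes rose and 1.92% fell past 2 fold. Of the other small leucine-rich proteoglycans 4 of 10 had at least 50 counts, and *Aspn* (0.786 to 20.6 CPM) and *Ogn* (1.302 to 19.6) rose past 2 fold, while *Omd* was at 0.62 and *Ecm2* at -0.23 on the log2 scale. Of 13 elastic fibre and microfibril genes tested, 3 rose, with *Fbln2* (85.7 to 269 CPM, 1.54) and *Fbn1* (1.14) foremost and *Emilin1* (0.28) and *Efemp1* (-0.26) last. Of 11 genes that make, bind or cleave hyaluronan and versican, 5 rose, among them the versican-cleaving proteases *Adamts5* (1.45 to 31.6 CPM) and *Adamts20* (3.91 to 28.4), while *Has1* and *Adamts15* were under 3 CPM at both stages. Of 17 matricellular and other glycoprotein genes, 6 rose and 1 fell. *Igfbp7* (3.12 to 101.5 CPM, 3.09) and *Sparc* (53.2 to 319, 2.38) led, *Smoc1* fell by 1.04 and *Ccdc80* was at -0.47. Of 12 integrin and syndecan genes, 4 rose, led by *Sdc4* (1.87) and *Sdc2* (1.42), with *Itga4* at -0.14 and *Sdc3* at -0.37. The list medians were 1.003, 0.73, 0.87, 0.61 and 0.60, against -0.10 for all genes.

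Between E14.5 and E16.5, 1.32% of all genes rose and 0.431% fell past 2 fold. *Omd* (7.38 to 100.7 CPM, 2.67) and *Ogn* (19.6 to 106, 1.97) were the 2 of 5 small proteoglycans that rose, with *Aspn* at 0.26 and *Ecm2* at 0.17. Of 17 glycoprotein genes 6 rose, led by *Smoc2* (8.28 to 298 CPM, 4.07) and *Smoc1* (5.71 to 39.2, 1.65), and *Ccdc80* and *Sparcl1* were at -0.08 and 0.00. The link protein gene *Hapln1* (13.4 to 42.6 CPM, 1.17), whose product ties versican to hyaluronan, was the 1 of 10 turnover genes past 2 fold, with *Adamts20* at 0.60, *Has2* at -0.23 and *Adamts1* at -0.33. The integrin gene *Itga4* (9.89 to 121 CPM, 2.72) was the 1 of 11 receptors, with *Sdc4* at 0.59, *Itga8* at -0.55 and *Itga9*, which binds tenascin C, at -0.83. None of 13 elastic fibre genes passed, and *Fbln5* (0.78), *Mfap4* (0.69), *Ltbp1* (-0.53) and *Fbln2* (-0.94) marked the ends. The medians were 0.34, 0.61, -0.04, -0.07 and 0.25 in that order, against 0.09 for all genes.

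Over the 10 groups the genes most like each member, by Pearson r of log2(CPM + 10) among 4879 genes, are a description of groups that share libraries. For *Postn* they were *Col6a3*, *Col1a1* and *Alx1* (r of 0.98, 0.97 and 0.97), for *Lum* *Tceal3*, *Aebp1* and *Clec11a* (0.99, 0.99 and 0.98), and for *Eln* *Ibsp*, *Pappa2* and *Aebp1* (0.98 each). *Dcn* was most like *Cib2*, *Sostdc1* and *Pthlh* (0.97, 0.97 and 0.96) and *Vcan* like *Efna5*, *Zranb1* and *Bcl11b* (0.99, 0.97 and 0.97). *Tnc* was most like *Rspo3*, *Tfap2c* and *Ptprz1* (0.95 each), *Bgn* like *Asap1*, *Fkbp7* and *Piezo2* (0.96, 0.96 and 0.94), and *Fn1* like *Mysm1*, *Mkln1* and *Tcaf1* (0.96, 0.95 and 0.94). *Fbln1* was most like *Rsf1*, *Gli3* and *Zfp428* (0.97 each) and *Fbn2* was like *Asxl3* and *Lef1* (0.95 each). Within the set, *Lum* and *Eln* had an r of 0.98, *Postn* and *Lum* of 0.93, *Vcan* and *Fbln1* of 0.92, and *Dcn* and *Fn1* of 0.07.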

How the data were processed

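The authors deposited 1 matrix of UMI counts per stage, made from 10x Genomics 3' v3 libraries with Cell Ranger 4.0.0 on mm10 per the labels and not normalized. Counts of called cells were used as deposited. Lineages and gates were called per cell from marker lists, and cells with markers of more than 1 lineage, which may include doublets, were left out, so no doublet caller was run. Counts were summed over the cells of a lineage and stage and scaled to CPM. Poisson, Clopper-Pearson and conditional binomial intervals were computed with python 3.11.15, numpy 2.4.6 and scipy 1.17.1. Ratios were tested on simulated data. Genes needed 50 counts over both groups. The members and lists were chosen with earlier results of these data known. Named genes were all members, the 3 most alike by r, and the 2 highest and 2 lowest of each related list. Alternatives changed the cell filter, lineage call, scaling (edgeR 4.0.16 TMM among them), CPM added and depth. Coordinates are those of GENCODE vM21 (GRCm38, that is mm10), another release than the annotation counted on, and 5 members overlap a gene on the other strand. A gate of the mesenchyme and a gene alike by r are not reported here.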

Additional observations from a re-analysis of the deposited data

Results flagged for a closer look

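*Dcn* and *Fbln1* were higher in mesenchyme than in epithelium at E14.5 and lower at E16.5. The log2 ratios were 0.54 and -0.33 for *Dcn* and 0.31 and -0.14 for *Fbln1*, with intervals for counting error on opposite sides of 0. There was 1 sample a stage, and the difference between stages was not tested.

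Cells that entered no comparison also held these transcripts. Cells with too few markers for a lineage had 49.7, 585.7 and 390.0 CPM of *Postn* from the youngest stage to the oldest, above the mesenchyme of each, and 25.8 CPM of *Tnc* at E16.5. They were shallow, with a median of 2251, 2140 and 2462.5 UMIs. At E16.5 there were 116 such cells with 348737 UMIs in all, so their *Tnc* value rests on few UMIs. The 35 glial cells of E14.5 had 999.7 CPM of *Vcan* (847 to 1172).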

How the results depend on the processing

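No paired analysis was possible because cells within a matrix carry no mark of the labelled sample they came from, so neither a replicate block nor leaving out a replicate could be run. Of 600 values, 40 member ratios under each of 15 alternatives, 8 crossed the 2-fold line and none that was past it changed sign. All 8 came from the CPM added. With 1 CPM added, 2 members were higher and 1 lower between E14.5 and E16.5, since *Dcn* reached 1.01 and *Tnc* -1.14, and *Tnc* reached 1.27 over epithelium at E16.5. With 50 CPM added, *Tnc* and *Eln* left the list at E14.5 over E11.5 (0.45 and 0.68), as they did over epithelium at E14.5 (0.50 and 0.58), and *Eln* did at E16.5 (0.77). The 4 alternatives on marker number, *Dlx5* and *Dlx6*, mixed cells and the deepest cells were added after the data were seen. *Dlx5* had a UMI in 39.7% of E16.5 epithelial cells. The number of UMIs behind a level depends on the size of the group. For *Tnc*, 3.76 CPM in E11.5 mesenchyme was 153 UMIs and 1.88 CPM in E14.5 epithelium was 10. In groups with few UMIs in all, such as endothelium and erythroid cells, higher levels also rest on few.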
